A study of Homo sapiens with 6 samples.

Results

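The cytosolic heat shock chaperone genes are 10 protein-coding genes whose products fold, refold or hold other proteins in the cytosol. They were taken by symbol as the rows of the deposited table named HSP90AA1, HSP90AB1, HSPA1A, HSPA1B, HSPA8, HSPH1, BAG3, DNAJA1, DNAJB1 and HSPB1. All 10 had a row among the 24878 genes of the table. They were measured by RNA-seq of poly-A selected RNA in 6 libraries of MOLM-13, a human cell line of monocytic acute myeloid leukaemia (type AML-M5 in the labels). The 2 control libraries carry the genotype label control and had no doxycycline, and the series' design text describes a control vector. The other 4 libraries carry the genotype label CaMK2D-KO and a doxycycline-inducible knockout vector against CaMK2D, a calcium/calmodulin-dependent kinase, with 2 libraries after 3 days and 2 after 5 days of induction. Vector and doxycycline thus change together between control and knockout groups, and their effects cannot be told apart. The promoter, the guide and the number of clones are not given in the labels. The labels do not state that the libraries within a group are separate cultures. The p-values therefore refer to the spread among these libraries alone, which may be technical.

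In the cytosol, the HSP70 proteins bind exposed hydrophobic stretches of unfolded proteins in a cycle driven by ATP. J-domain proteins such as DNAJA1 and DNAJB1 bring clients to HSP70 and start its ATP hydrolysis, and nucleotide exchange factors such as HSPH1 and BAG3 reset it. HSP90 then acts late in folding on kinases and steroid receptors, and small heat shock proteins such as HSPB1 hold unfolded proteins in a form that can be refolded. The transcription factor HSF1 raises most of these genes under heat or proteotoxic stress by binding heat shock elements, and several kinases that drive leukaemia, such as mutant FLT3, are clients of HSP90. In each pair of paralogs one gene is mostly constitutive (HSPA8, HSP90AB1) and the other mostly inducible (HSPA1A and HSPA1B, HSP90AA1).

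The promoter sequences are shown first because control by HSF1 is what the members are known to share. Heat shock elements are alternating GAA and TTC units with any 2 bases between them. The search used 2 units in a row (GAANNTTC or TTCNNGAA, which covers both strands) and 3 units in a row, where the third unit follows after a further 2 bases, so that each 3-unit match also holds overlapping 2-unit matches. The RefSeq promoter table (GRCh38.p14) gives 300 bases per start, from 250 before to 50 after it, and all 10 members matched it by symbol, with 15 windows. A 3-unit element was found in 172 of all 35116 windows (0.49%) and a 2-unit element in 4737 (13.5%). Among the members' windows, 4 of 15 (26.7%) held the 3-unit and 9 of 15 (60%) the 2-unit element. By gene, 4 of 10 members (HSPA8, HSP90AA1, HSP90AB1 and DNAJA1) had the 3-unit element in some window, and in DNAJA1 it began 3 bases after the start. A 2-unit element was found in 8 of 10, all but HSPH1 and BAG3. A match is a description of letters, and no binding was measured here. The search takes exact letters in these windows only, so a missing match does not mean a missing element. The 60-base stretches below carry the elements of the most abundant chaperones and of the HSPA1 copies, read 5′ to 3′ on the gene's strand, with the element in capitals:

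HSP90AB1, chr6:44247754-44247813, plus strand, element beginning 165 bases before the third of its listed starts: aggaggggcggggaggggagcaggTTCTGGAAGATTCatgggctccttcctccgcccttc

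HSP90AB1, chr6:44247807-44247866, plus strand, 112 bases before the same start: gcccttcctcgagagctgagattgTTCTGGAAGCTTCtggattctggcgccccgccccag

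HSP90AA1, chr14:102087097-102087156, minus strand, 88 bases before the downstream one of its 2 listed starts (a further 2-unit match that does not overlap the capitals is left in lower case, and the window of the other start holds no match): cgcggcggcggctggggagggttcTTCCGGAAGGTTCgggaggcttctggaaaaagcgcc

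HSPA8, chr11:123062327-123062386, minus strand, 230 bases before the start: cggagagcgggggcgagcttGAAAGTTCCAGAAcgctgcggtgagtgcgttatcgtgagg

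HSPA8, chr11:123062156-123062215, minus strand, 55 bases before the start: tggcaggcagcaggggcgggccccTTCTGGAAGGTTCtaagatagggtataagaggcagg

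HSPA1A, chr6:31815411-31815470, plus strand, 2-unit element 106 bases before the start: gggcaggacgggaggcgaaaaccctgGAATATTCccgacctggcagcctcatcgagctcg

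HSPA1B, chr6:31827607-31827666, plus strand, 2-unit element 105 bases before the start: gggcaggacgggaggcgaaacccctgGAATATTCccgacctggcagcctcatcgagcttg

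The HSPA1A and HSPA1B windows are near copies, identical at 277 of 299 aligned bases (92.6%). HSPA8 and HSP90AB1, which have 2 separate 3-unit elements each, are also the chaperones with the most counts of the set. HSPB1 has no 3-unit match in its window, although it has more counts in each library than DNAJA1, which has 1. A link between elements and level was not tested.

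The libraries held 15456770 to 21081298 counts, and the 10 members together took 0.503% to 0.529% of them in the controls, 0.573% to 0.603% at day 3 and 0.438% to 0.506% at day 5. A count of 0 allows at most 0.142 to 0.194 CPM (counts scaled to library size) in a library, from counting error alone (3 counts). The mRNA of the targeted gene did not mark the knockout: CAMK2D averaged 18.7 ± 6.03 CPM without induction, 15.2 ± 0.645 after 3 days and 28.6 ± 0.597 after 5 days (SD, n = 2), with edgeR adjusted p of 0.437 and 0.118 against control, so the libraries are called KO-labelled. Of 12 myeloid markers, 8 stood at 1 FPKM (fragments scaled to exon length and library size) or more in every library, while CD68 reached at most 0.193 FPKM. Their summed level was 732 to 1007 FPKM in the controls, 232 to 322 at day 3 and 209 to 375 at day 5. Among markers of other cells, CD3D, CD3E, CD2, MS4A1, HBB, HBA1, PF4, EPCAM, KRT19, CDH1 and COL1A2 had no row in the table used here. The 2 T and NK markers with a row (TRAC and NKG7) summed to 87.4 to 132 FPKM in the controls and 44.4 to 65.1 in the KO-labelled libraries. Most of this was NKG7, at up to 120, while TRAC reached at most 11.5. The 3 B cell markers summed to 4.58 to 5.5 and 2.45 to 3.82, and ITGA2B, of megakaryocytes, reached at most 0.143. The 4 epithelial, stromal and endothelial markers with a row summed to 21.7 to 37.9 FPKM in the controls and 10.3 to 14 in the KO-labelled libraries, among them PECAM1, which myeloid cells also make, at up to 28.2. The part of these marker levels in the chaperone values was not tested. In such bulk samples, fewer cells of a type and less RNA per cell cannot be told apart.

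Levels per length differed far more between the chaperones than between the groups. By the deposited FPKM, HSP90AB1, the constitutive cytosolic HSP90, was highest with a mean over the 6 libraries of 818 (range 693 to 999), rank 45 of all genes. HSPA8, the constitutive HSP70 also called HSC70, followed at 308 (209 to 374) and HSPB1, the small heat shock protein HSP27, at 185 (149 to 264). HSP90AA1, the inducible HSP90, stood at 114 FPKM (87.4 to 155). The ranges of HSPA8 and HSPB1 overlapped, as did those of HSPB1 and HSP90AA1, although within each of the 6 libraries HSPA8 stood above HSPB1 and HSPB1 above HSP90AA1. Then came the J-domain proteins DNAJA1 at 45.7 (41.8 to 52.2) and DNAJB1 at 33.8 (27.4 to 36.8), and HSPH1, the cytosolic HSP110, at 18.1 (15.8 to 22.4). BAG3, a co-chaperone of selective autophagy, stood at 5.45 FPKM (3.78 to 6.59) and HSPA1B, an inducible HSP70, at 4.06 (3.37 to 5.29). BAG3 and HSPA1B overlapped and changed places in KO day 3 replicate 1 (3.78 and 4.03) and KO day 5 replicate 1 (5.10 and 5.29). HSPA1A, the other inducible HSP70, was at most 0.124 FPKM. The rest of the order held without overlap between neighbours. The deposited FPKM divides by the summed length of all annotated exons. That is 5248 bases for HSP90AA1 and 1634 for HSPB1, whose longest transcripts have 3510 and 1455. The order of neighbours and the percents between paralogs given below depend on this divisor, and other lengths were not tested.

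**Figure D1:**
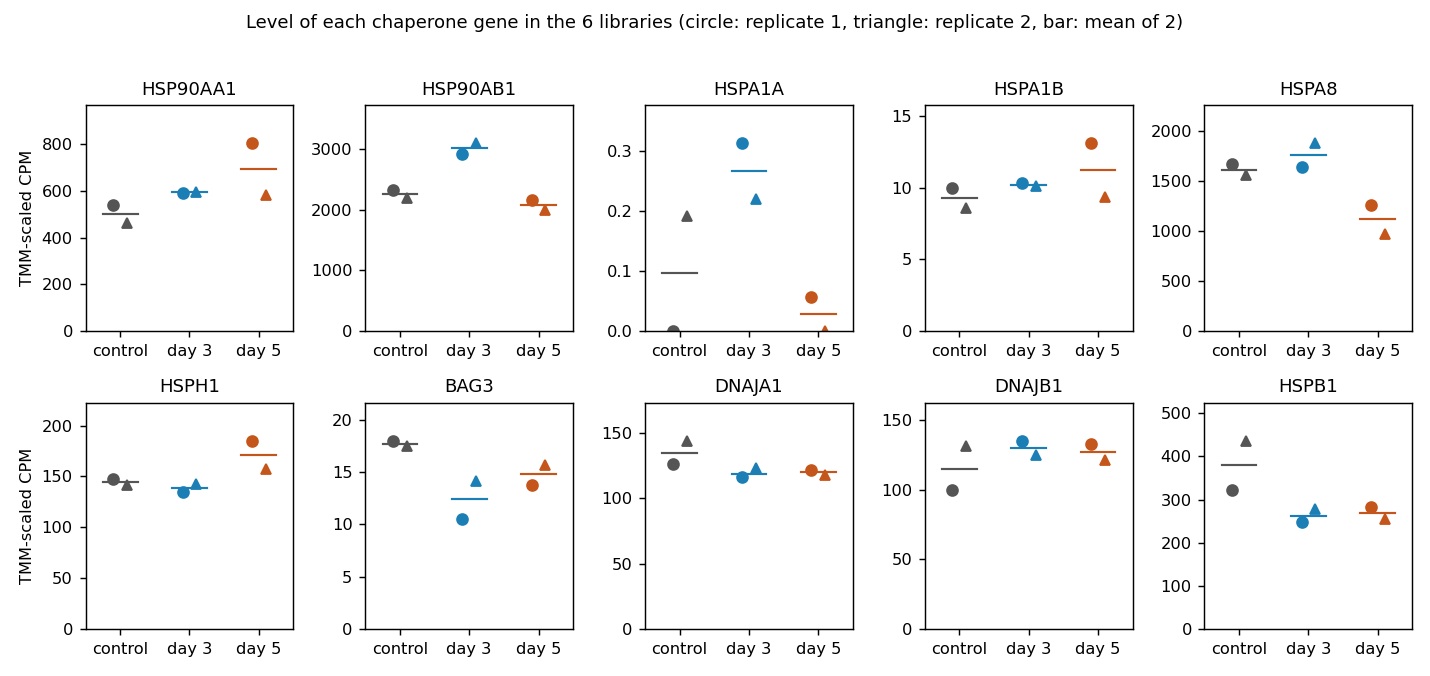
TMM-scaled CPM of each chaperone gene in the 6 libraries, each panel on its own linear axis from 0, with circles for replicate 1, triangles for replicate 2 and bars for the mean of each group. HSP90AB1 was highest in both day 3 libraries (2922 and 3097 CPM), HSPA8 lowest in both day 5 libraries (1263 and 974), and HSPA1A stood at 0 to 0.313 CPM.

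Against control, 0 of 9 tested chaperone genes passed the edgeR threshold (adjusted p under 0.05) at day 3 or at day 5, where 11.7% and 14.5% of all 14601 tested genes passed. HSPA1A had too few counts to be tested. Between day 5 and day 3, again 0 of 9 passed, where 0.0274% of all genes did. At an unadjusted p under 0.05, 3 of 9 stood apart at day 3 (HSP90AB1 higher, BAG3 and HSPB1 lower) with 28.9% of all genes. At day 5 it was 3 of 9 (HSP90AA1 higher, HSPA8 and HSPB1 lower) with 30.8% of all genes, and between the days 3 of 9 (HSPH1 higher, HSPA8 and HSP90AB1 lower) with 15.1%. These shares lie near the background against control. DESeq2 called 2 of 9 at day 3 (HSP90AB1 and HSPB1, background 16.8%), 2 at day 5 (HSPA8 and HSPB1, background 18.1%) and 2 between the days (HSPA8 and HSP90AB1, background 2.69%), while limma on the FPKM values called 0 in each. Without a filter on low counts, edgeR called the same members as DESeq2 in each comparison, and at day 5 also HSP90AA1 (adjusted p = 0.0276), beside 11.8%, 13% and 2.41% of all genes. The groups did not overlap in CPM for 6 of 9 at day 3 (background 60.4%), 7 of 9 at day 5 (58.1%) and 3 of 9 between the days (49.2%). Both comparisons against control use the same 2 control libraries.

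The sizes were small and the signs mixed. At day 3, 5 members were higher and 4 lower, with log2 fold changes from -0.53 to 0.42 and a median of 0.13, where all genes had a median of 0.00. At day 5, 4 were higher and 5 lower, from -0.53 to 0.46, with a median of -0.12 (all genes 0.01). The median absolute log2 fold change was 0.18 for the members and 0.39 for all genes at day 3, 0.26 and 0.41 at day 5, and 0.23 and 0.28 between the days. All genes here include those near the filter's minimum count of 10, and genes at the members' own levels were not compared separately. All 9 tested members stayed under 1 on the log2 scale in each comparison, as did 83.9%, 82.4% and 90.8% of all genes.

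**Figure D2:**
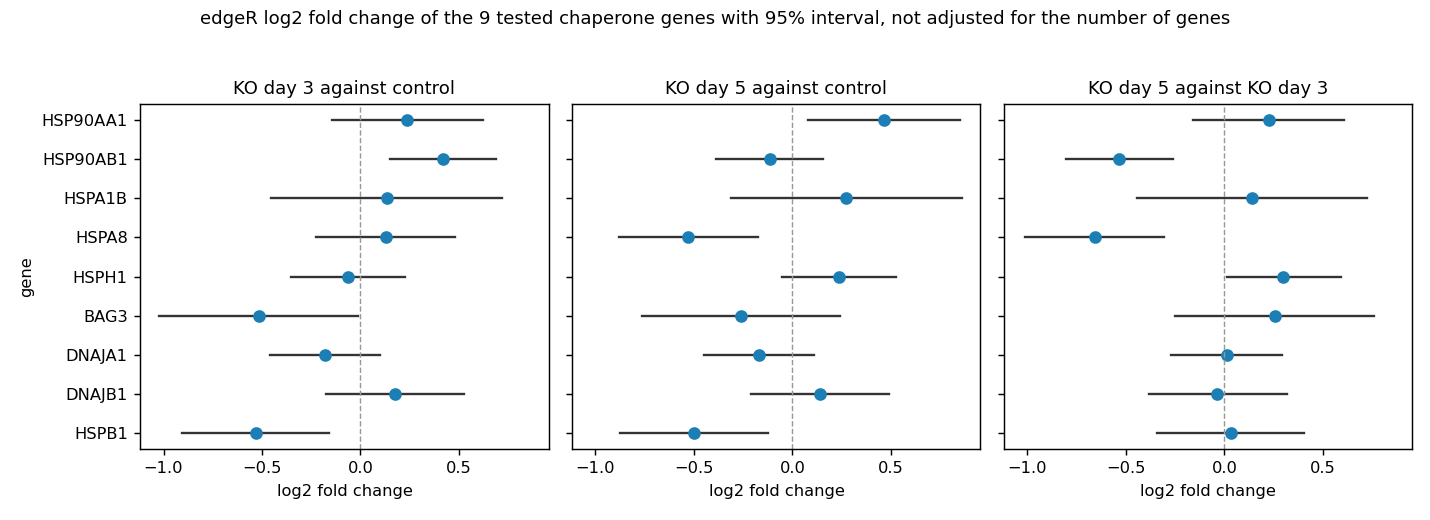
Log2 fold change of the 9 tested chaperone genes in the 3 comparisons, with points for the edgeR estimate and lines for its unadjusted 95% interval. Every estimate lies between -0.66 and 0.46, and 0 of 9 pass the adjusted threshold in any comparison.

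The HSP90 genes encode the cytosolic dimers that keep kinases and receptors ready for activation. HSP90AB1 (ENSG00000096384, chromosome 6, 44246166 to 44253888, plus strand, GRCh38, GENCODE release 29) gave 2320 and 2185 CPM in control libraries, 2922 and 3097 after 3 days, and 2167 and 1990 after 5 days. Both day 3 libraries were thus above the other 4, and the day 5 libraries lay just below the controls. The log2 fold change was 0.42 at day 3 (SE 0.118, edgeR adjusted p = 0.0569), -0.12 at day 5 (SE 0.118, adjusted p = 0.554) and -0.53 from day 3 to day 5 (SE 0.118, adjusted p = 0.171). With DESeq2 the first and the last passed, at adjusted p of 0.017 and 0.00578, and with upper-quartile factors in edgeR the first did (0.0474). Neither passed with limma on the FPKM values or when only the groups compared were fitted. Leaving out each library gave 0.385 to 0.47 at day 3 and -0.613 to -0.478 between the days. The 2 processed pseudogenes of HSP90AB1 in the table had 0 to 3 counts, at most 0.00658% of those of the parent gene.

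HSP90AA1 (ENSG00000080824, chromosome 14, 102080738 to 102139699, minus strand) gave 541 and 464 CPM in control libraries, 591 and 594 after 3 days, and 804 and 583 after 5 days. All 4 KO-labelled libraries were above both controls, and the day 5 libraries lay on either side of the day 3 libraries. HSP90AA1 had a log2 fold change of 0.24 at day 3 (SE 0.167, edgeR adjusted p = 0.386) and 0.46 at day 5 (SE 0.168, adjusted p = 0.104), with an unadjusted 95% interval of 0.079 to 0.850. Without KO day 5 replicate 1 the day 5 value was 0.20 (adjusted p = 0.469). Between the days it was 0.23 (adjusted p = 0.568), which turned to -0.04 without KO day 5 replicate 1. HSP90AA1 shares 197 exonic bases with WDR20 on the other strand, and the library kit is not stated to keep strand. Per length, HSP90AA1 reached 13.2% and 12% of the level of HSP90AB1 in control libraries, 11.5% and 10.9% after 3 days, and 21.1% and 16.6% after 5 days. The share was highest in both day 5 libraries, although HSP90AA1 itself in KO day 5 replicate 2 (583 CPM) was below both day 3 libraries (591 and 594). HSP90AB1 was lower in both day 5 libraries than in both day 3 libraries. This pair of genes was chosen after its values were seen and has no test. Also, 2 libraries against 2 could not go below an exact two-sided p of 0.333.

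The HSP70 genes encode the central ATP-driven chaperone of the set. HSPA8 (ENSG00000109971, chromosome 11, 123057489 to 123063230, minus strand) gave 1671 and 1560 CPM in control libraries, 1645 and 1884 after 3 days, and 1263 and 974 after 5 days. Both day 5 libraries were below the other 4, while the controls and day 3 overlapped. Its log2 fold change was 0.13 at day 3 (SE 0.153, edgeR adjusted p = 0.631), -0.53 at day 5 (SE 0.154, adjusted p = 0.0548) and -0.66 from day 3 to day 5 (SE 0.154, adjusted p = 0.185). The day 5 value against control lay close to the threshold and passed it with DESeq2 (adjusted p = 0.0102), with relative log expression factors (0.0462), with a filter of 5 CPM (0.0409) and without KO day 5 replicate 1 (-0.74, adjusted p = 0.046). Without KO day 5 replicate 2 it was -0.36 (adjusted p = 0.25). DESeq2 also called the difference between the days (adjusted p = 0.00967). HSPA8 had the widest spread of the tested members, 1.93-fold between its highest and lowest library. The annotated exons of HSPA8, merged over all its transcripts, overlap the small nucleolar RNAs SNORD14C and SNORD14D by 88 and 87 bases. Which transcripts bring this overlap was not examined. The 8 processed pseudogenes in the table together had 11 to 25 counts a library, at most 0.0897% of those of HSPA8.

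The inducible HSP70 copies lie side by side in the class III region of the major histocompatibility complex. HSPA1B (ENSG00000204388, chromosome 6, 31827735 to 31830255, plus strand) gave 10.0 and 8.58 CPM in control libraries, 10.3 and 10.1 after 3 days, and 13.1 and 9.34 after 5 days. Its day 5 libraries lay on either side of those of day 3. The log2 fold change was 0.13 at day 3 (95% interval -0.455 to 0.721, edgeR adjusted p = 0.777), 0.27 at day 5 (-0.314 to 0.861, adjusted p = 0.517) and 0.14 between the days (-0.445 to 0.726, adjusted p = 0.843). Without KO day 5 replicate 1 the last was -0.14, and the day 5 value against control was -0.01.

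HSPA1A (ENSG00000204389, chromosome 6, 31815464 to 31817946, plus strand) gave 0 and 4 counts in control libraries, 6 and 4 after 3 days, and 1 and 0 after 5 days. Both genes have a single exon, and their transcripts are near copies. Of 150-base stretches, 67.1% of those in HSPA1A also occur in HSPA1B, 66% the other way, and 0 are shared among the other members. The sources used here do not say whether reads that match both copies were counted, so the level of each copy is uncertain. HSPA1B also shares 920 exonic bases with AL671762.1 on the same strand. Summed, the copies gave log2 fold changes of 0.16 and 0.26 against control (edgeR adjusted p = 0.734 and 0.534) and 0.11 between the days (0.882). The sum adds only 0 to 6 counts a library to those of HSPA1B, so it had to lie near HSPA1B alone. It cannot recover reads left uncounted because they match both copies. Per length, HSPA1B reached 1.15% and 1.06% of the level of HSPA8 in control libraries, 1.21% and 1.03% after 3 days, and 2% and 1.84% after 5 days, so this share too was highest in both day 5 libraries. HSPA8 itself was lowest in both day 5 libraries (264 and 209 FPKM). HSPA1B in KO day 5 replicate 2 (3.85 FPKM) was below control replicate 1 (4) and KO day 3 replicate 1 (4.03). The share was chosen after its values were seen and has no test.

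**Figure D3:**
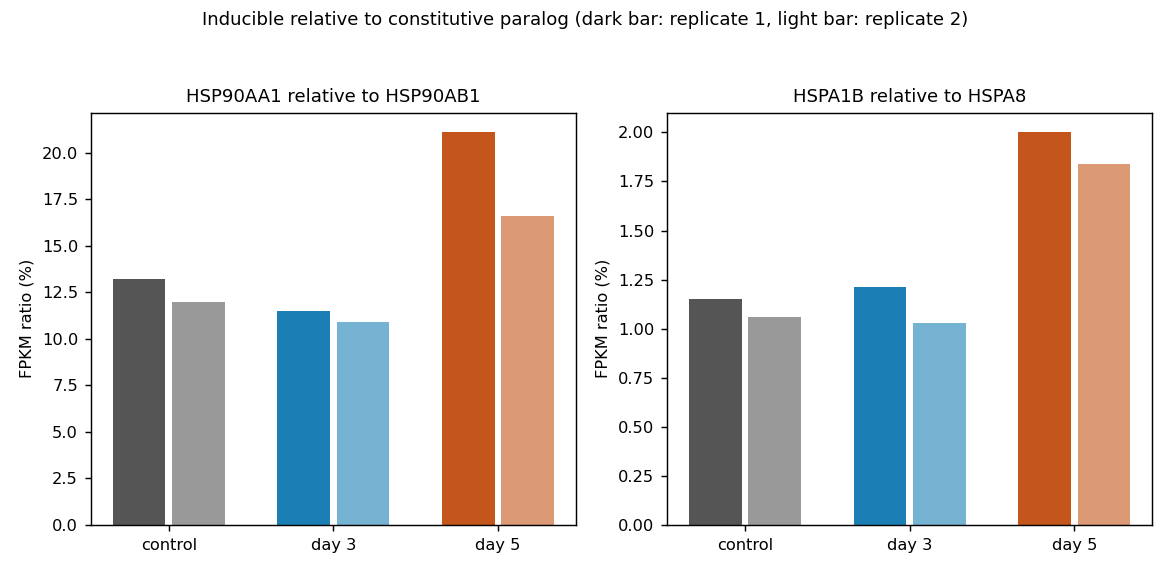
FPKM of the mostly inducible paralog as a percent of that of the mostly constitutive one in each library, for HSP90AA1 over HSP90AB1 and HSPA1B over HSPA8. Each bar is 1 library, dark for replicate 1 and light for replicate 2. Both day 5 libraries lie above the other 4 in each pair, at 16.6% and 21.1% and at 1.84% and 2%. Each percent depends on both genes, and HSPA8 itself was lowest in both day 5 libraries.

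The partners that release nucleotide from HSP70 showed no call. HSPH1 (ENSG00000120694, chromosome 13, 31134974 to 31162388, minus strand), an HSP110 that also helps to pull aggregates apart, gave 148 and 142 CPM in control libraries, 135 and 143 after 3 days, and 185 and 157 after 5 days. Its day 5 libraries were the highest of the 6. Its log2 fold change was -0.06 at day 3 (SE 0.126, edgeR adjusted p = 0.786), 0.24 at day 5 (SE 0.126, adjusted p = 0.243) and 0.30 between the days (SE 0.126, adjusted p = 0.318).

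BAG3 (ENSG00000151929, chromosome 10, 119651370 to 119677819, plus strand), which links HSP70 to autophagy and to small heat shock proteins, gave 18.0 and 17.5 CPM in control libraries, 10.5 and 14.2 after 3 days, and 13.8 and 15.7 after 5 days. All 4 KO-labelled libraries were below both controls. For BAG3 the log2 fold change was -0.52 at day 3 (SE 0.22, edgeR adjusted p = 0.165) and -0.26 at day 5 (SE 0.219, adjusted p = 0.463). Between the days it was 0.25 (SE 0.22, adjusted p = 0.631), from libraries that overlapped.

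The J-domain genes varied least of the tested members, 1.24-fold for DNAJA1 and 1.36-fold for DNAJB1 between the highest and lowest library. DNAJA1 (ENSG00000086061, chromosome 9, 33025211 to 33039907, plus strand), a farnesylated HSP40, gave 126 and 144 CPM in control libraries, 116 and 123 after 3 days, and 122 and 118 after 5 days. Every KO-labelled library lay below both controls. The log2 fold change was -0.18 at day 3 (95% interval -0.461 to 0.099, edgeR adjusted p = 0.367) and -0.17 at day 5 (-0.451 to 0.11, adjusted p = 0.387). Between the days it was 0.01 (-0.270 to 0.291, adjusted p = 0.982), and its sign depended on the setting (-0.006 with DESeq2).

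DNAJB1 (ENSG00000132002, chromosome 19, 14514770 to 14529770, minus strand), the heat-inducible HSP40 that works with HSP70 in refolding and in holding HSF1 back, gave 99.8 and 131 CPM in control libraries, 135 and 125 after 3 days, and 133 and 121 after 5 days. Control replicate 1 was the lowest library, and the other 5 lay close together. Its log2 fold change was 0.17 at day 3 (SE 0.152, edgeR adjusted p = 0.493) and 0.14 at day 5 (SE 0.153, adjusted p = 0.586), and both turned to -0.003 and -0.05 without control replicate 1. Between the days it was -0.04 (SE 0.152, adjusted p = 0.944), and 0.04 with limma on the FPKM values. DNAJB1 shares 211 exonic bases with TECR on the other strand.

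HSPB1 (ENSG00000106211, chromosome 7, 76302544 to 76304295, plus strand), the small heat shock protein that also binds actin, gave 322 and 436 CPM in control libraries, 247 and 278 after 3 days, and 282 and 255 after 5 days. All 4 KO-labelled libraries were below both controls, and the controls were farther from each other than any KO-labelled library was from another. HSPB1 had a log2 fold change of -0.53 at day 3 (SE 0.163, edgeR adjusted p = 0.0733) and -0.50 at day 5 (SE 0.162, adjusted p = 0.0777). Without control replicate 1 both passed the threshold, at -0.73 (adjusted p = 0.0168) and -0.71 (adjusted p = 0.0145), and with DESeq2 both did (0.0238 and 0.0281). Without control replicate 2 they shrank to -0.29 at both days (adjusted p = 0.224 and 0.216), so the size turns on which control is used. Between the days HSPB1 stood at a log2 fold change of 0.03 (95% interval -0.340 to 0.406, adjusted p = 0.95).

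The genes most like the 3 members with the widest range over the libraries were sought among 9680 protein-coding genes with a mean of at least 5 CPM, by Pearson r of log2 CPM over the 6 libraries. They are a description, since the libraries share groups and depth. For HSPA8 they were XRCC6 (r = 0.9972), which encodes the DNA repair protein Ku70, ZNF3 (0.9965) and BORCS8 (0.9944). For HSPB1 they were COL9A3 (0.9970), AJUBA (0.9920) and CBX8 (0.9894), and for HSP90AA1 they included ANP32E (0.9939) and AFG1L (0.9841). Of the genes compared, 64, 32 and 39 reached an r of 0.95.

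Beyond the chaperones themselves, 7 lists of related genes were examined, with 92 tested genes when each is counted once. At day 3, 7 of these passed the edgeR threshold (7.61%, all genes 11.7%), 6 higher and 1 lower. At day 5, 14 passed (15.2%, all genes 14.5%), 12 higher and 2 lower, where all called genes numbered 1087 higher and 1030 lower. The background for each list below is the same: 11.7% of all genes at day 3, 14.5% at day 5 and 0.0274% between the days. The heat shock factors were not called. HSF1, the main activator of the chaperone genes, gave 126 and 125 CPM in control libraries, 142 and 135 after 3 days, and 122 and 123 after 5 days, and its log2 fold changes were 0.15 (edgeR adjusted p = 0.424) and -0.04 (adjusted p = 0.867), each with an SE of 0.111. Its day 3 libraries were the highest of the 6. HSF2 averaged 34.5 ± 8.64 CPM in control libraries, 24.9 ± 3.95 after 3 days and 26.4 ± 1.45 after 5 days (SD, n = 2; edgeR adjusted p = 0.19 and 0.267), and HSF4 at 6.56 ± 0.554, 7.20 ± 0.308 and 6.99 ± 1.55. HSF1 shares exonic bases with DGAT1 and HSF4 with AC074143.1.

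Of 11 tested factors and regulators of the heat shock response, 1 rose at day 3 and 2 at day 5, and 0 fell (median log2 fold changes 0.12 and 0.09). HDAC6, a cytosolic deacetylase of HSP90, rose from 28.5 and 29.8 CPM to 46.9 and 40.9 at day 3 (0.59, SE 0.147, edgeR adjusted p = 0.0386) and to 47.5 and 51.3 at day 5 (0.76, SE 0.147, adjusted p = 0.015). SIRT1, a deacetylase of HSF1, rose at day 5 from 39.0 ± 3.04 to 55.7 ± 0.137 CPM (0.52, SE 0.143, adjusted p = 0.0477). These calls were near the threshold: HDAC6 at day 3 and SIRT1 at day 5 were lost whichever of the 6 libraries was left out (edgeR adjusted p = 0.0515 to 0.252 and 0.0598 to 0.165), and HDAC6 at day 5 without KO day 5 replicate 1 or 2 (0.0522 and 0.0822).

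The HSP70 machine showed single calls in its partner lists. Of 10 tested HSP70, HSP110 and small heat shock relatives, 0 passed the edgeR threshold in any comparison (medians -0.07 and 0.24 against control). Of 15 tested J-domain genes, 1 rose at both days, DNAJC21, which acts in ribosome maturation, from 58 and 49 CPM to 71.5 and 81.8 at day 3 (0.52, SE 0.14, edgeR adjusted p = 0.0499) and 98.8 and 101 at day 5 (0.90, SE 0.14, adjusted p = 0.00707). The list's medians were -0.10 and -0.12. Of 8 tested nucleotide exchange factors and HSP70 co-factors, HSPBP1 rose at both days and BAG4 fell at day 5 (medians 0.17 and 0.03). HSPBP1, an exchange factor that holds HSP70 in check, rose from 34.4 and 43.1 CPM to 86.1 and 74 at day 3 (1.05, SE 0.186, edgeR adjusted p = 0.0134) and 75.6 and 57.3 at day 5 (0.78, SE 0.185, adjusted p = 0.0297). BAG4, a relative of BAG3 that overlaps LSM1, fell at day 5 from 37.9 ± 1.14 to 23.2 ± 4.75 CPM (-0.70, SE 0.189, adjusted p = 0.0428).

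DNAJC21 at day 3 missed the threshold when any library but control replicate 1 was left out (edgeR adjusted p = 0.0757 to 0.286). HSPBP1 at day 3 missed it without KO day 3 replicate 1 (adjusted p = 0.0864), and at day 5 without control replicate 1, KO day 5 replicate 1 or either day 3 library (0.0509 to 0.142). BAG4 missed it when any library but KO day 5 replicate 1 was left out (0.0656 to 0.203). DNAJC21 at day 5 was called without each library in turn.

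Among 21 tested HSP90 co-chaperones, 1 fell at day 3, and 2 rose and 1 fell at day 5 (medians 0.12 and 0.04). FKBP5, the immunophilin that lowers steroid receptor affinity and is itself induced by glucocorticoids, fell from 301 and 273 CPM to 138 and 143 at day 3 (-1.03, SE 0.118, edgeR adjusted p = 0.00311) and 142 and 133 at day 5 (-1.06, SE 0.118, adjusted p = 0.00218). The 4 KO-labelled libraries lay between 133 and 143 CPM. SUGT1, which links HSP90 to kinetochore and immune receptor clients, gave 47.9 and 52.4 CPM in control libraries and 61.2 and 62.5 after 3 days (0.30, adjusted p = 0.166), and rose to 93.2 and 84.4 at day 5 (0.82, SE 0.129, adjusted p = 0.00713). PPID, the cyclophilin of HSP90 complexes, which overlaps ETFDH, rose at day 5 from 29.4 ± 3.12 to 48.5 ± 3.49 CPM (0.72, SE 0.159, adjusted p = 0.0237). FKBP5 at both days and SUGT1 at day 5 were called in 18 of 18 alternatives, whereas PPID missed the threshold when any library but control replicate 2 was left out (0.052 to 0.11).

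Of 14 tested genes of the chaperonin TRiC and of prefoldin, which fold actin and tubulin, 1 rose at day 3 and 2 at day 5. None fell (medians 0.25 and 0.19), and 11.7% and 14.5% of all genes were called. CCT6A, a subunit of the TRiC ring, rose from 424 and 475 CPM to 693 and 714 at day 3 (0.64, SE 0.123, edgeR adjusted p = 0.0168) and 724 and 649 at day 5 (0.61, SE 0.123, adjusted p = 0.0171). PFDN4, a prefoldin subunit, rose at day 5 from 14.9 ± 0.699 to 24.8 ± 0.714 CPM (0.73, SE 0.189, adjusted p = 0.0372). PFDN4 missed the threshold whichever library was left out (0.0676 to 0.139). CCT6A missed it at day 3 without either day 3 library (0.108 and 0.127), and at day 5 without KO day 5 replicate 1 or either day 3 library (0.0544 to 0.0901).

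Of 21 tested other heat-inducible genes, 2 rose at day 3, 4 rose at day 5 and 1 rose between the days, and 0 fell (medians 0.20, 0.26 and 0.08). This list shares members with the lists of co-chaperones, relatives and J-domain genes, so their counts are not independent. HMOX1, the haem oxygenase, which heat, haem and oxidants induce, rose from 0.642 and 1.25 CPM to 5.73 and 4.78 at day 3 (2.43, SE 0.314, edgeR adjusted p = 0.00465) and 74.8 and 98.9 at day 5 (6.47, SE 0.316, adjusted p = 0.000125). SQSTM1, the autophagy receptor p62, rose at day 5 from 167 and 123 to 268 and 298 CPM (0.97, SE 0.162, adjusted p = 0.00916), and JUN, a stress-induced transcription factor, from 24.2 and 20.4 to 49.1 and 38 (0.97, SE 0.186, adjusted p = 0.0147). CACYBP, an HSP90 and calcyclin binding protein, rose at day 5 from 187 ± 0.317 to 265 ± 23.7 CPM (0.50, SE 0.12, adjusted p = 0.0305). HSPD1, the mitochondrial chaperonin, named after its values were seen, rose at day 3 from 497 ± 49.1 to 703 ± 39.3 CPM (0.50, SE 0.123, adjusted p = 0.0377). SQSTM1 and JUN are known targets of other stress pathways as well.

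HMOX1 was called without each library in turn in all 3 comparisons, but missed the threshold with unfiltered limma at day 3 (adjusted p = 0.0655) and between the days (0.171). SQSTM1 missed the threshold without KO day 5 replicate 2 (edgeR adjusted p = 0.0512) and JUN without KO day 5 replicate 1 (0.0812). CACYBP missed it whichever library was left out (0.0631 to 0.151), and HSPD1 when any library but control replicate 1 was (0.0561 to 0.254). When only the 4 libraries compared were fitted, HDAC6, DNAJC21 and HSPD1 at day 3 also missed it. So did SIRT1, HSPBP1, BAG4, PPID, CCT6A, PFDN4 and CACYBP at day 5 (edgeR adjusted p = 0.0547 to 0.103 over both days). With unfiltered limma, SQSTM1 (adjusted p = 0.0573) and JUN (0.0517) at day 5 were among those that missed it. With relative log expression factors in edgeR, DNAJC21 at day 3 (0.0534) and SIRT1 at day 5 (0.057) did. SIRT1 also did with upper-quartile factors (0.052) and without a filter (0.0529). SQSTM1 overlaps MGAT4B and MRNIP, CACYBP overlaps MRPS14 and HSPD1 overlaps HSPE1 in their exons, and reads of such stretches may belong to either gene.

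**Figure D4:**
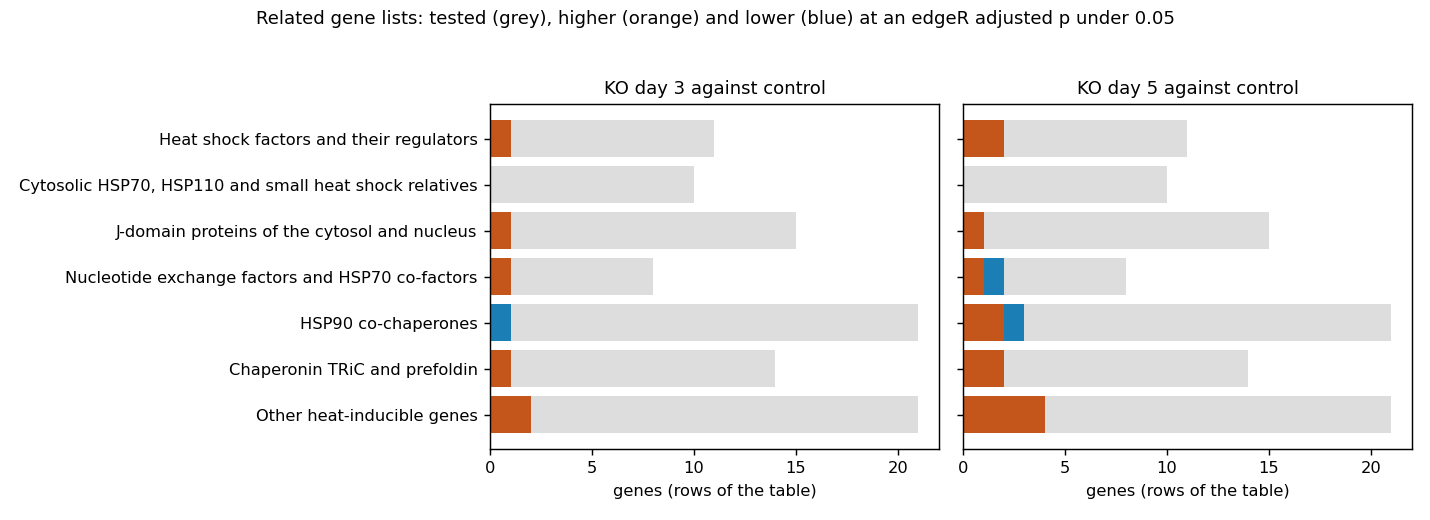
Number of genes in each of the 7 related lists at day 3 and at day 5 against control, with the full grey bar for the genes tested, orange for those higher and blue for those lower at an edgeR adjusted p under 0.05. No list has more than 4 called genes, and those lower are FKBP5 at both days and BAG4 at day 5.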

How the data were processed

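Poly-A selected RNA of 6 MOLM-13 libraries was sequenced. The deposited table holds read counts and FPKM values for 24878 genes, per the file headers, and the deposited FPKM length of all 10 chaperone genes equals the summed exon length of GENCODE release 29. HISAT2, HTSeq 0.11.2, DESeq2 1.26.0 and GRCh38 appear in the submitters' processing notes without a role. How reads were counted, and whether by strand, is not given in these sources.

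Counts were tested with edgeR 4.0.16 in R 4.3.3: filterByExpr (minimum count 10, total 15; 14601 genes, at least 99.9% of counts), TMM factors of 0.962 to 1.04, and one robust quasi-likelihood model of the 3 groups without a block (3 residual degrees of freedom, median prior 5.12). P-values were adjusted over all genes by Benjamini-Hochberg, threshold 0.05. Levels are TMM-scaled CPM. The prior count of fold changes was 0.125, and each SE was obtained by dividing the size of the log2 fold change by the root of F. Alternatives were other factors and filters, DESeq2 1.42.0, limma 3.58.1 on log2(FPKM + 1) or log2(FPKM + 0.1), fits of the groups compared, a replicate block, and leaving out each library.

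All 10 chaperones are named, with HSF1, HSF2, HSF4, up to 4 called genes of each list by adjusted p, and the 3 genes most like each of the 3 most variable members. Members and lists were chosen with earlier results of these data known. Some genes that these rules and the marker lists take are not reported here.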

Additional observations from a re-analysis of the deposited data

Results flagged for a closer look

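HMOX1, the haem oxygenase of the list of other heat-inducible genes, differed between the days of induction: it stood at 5.73 and 4.78 CPM in the day 3 libraries and at 74.8 and 98.9 CPM in the day 5 libraries. The log2 difference was 4.04 (edgeR adjusted p = 0.00443), and 3.83 to 4.21 when each library was left out in turn. With limma it passed on log2(FPKM + 1) with a filter (3.59, adjusted p = 0.0109), and missed the threshold on log2(FPKM + 0.1) (4.05, adjusted p = 0.084) and without a filter (3.59, adjusted p = 0.171). It was singled out because its change from control at day 5 differed from that at day 3 by a test of the difference itself. That edgeR test was passed by 0 of the 9 tested chaperone genes and by 0.0274% of all 14601 genes tested. DESeq2 called 2 of the 9 between the days (HSPA8 and HSP90AB1), beside 2.69% of all genes.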

How the results depend on the processing

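Of the chaperones' fold changes under the alternatives, 439 kept direction and side of the threshold, 27 newly passed it and 20 reversed. The named genes of the lists gave 560 unchanged, 95 that missed the threshold, 5 that newly passed it and 6 reversed. At day 3 the members called (0) became 1 with upper-quartile factors, beside 1744 of all 14601 genes. They became 2 without a filter, with DESeq2 and with the replicate block. At day 5 they became 1 with relative log expression factors (beside 2127 of 14601 genes) or 5 CPM in 2 libraries (2173 of 10507). They became 2 with DESeq2, and 3 without a filter and with the replicate block. Between the days they became 2 without a filter, with DESeq2 and with the replicate block. Leaving out each library gave 0 to 2, 0 to 1 and 0. All genes called at day 3 (1710) became 2925 without a filter, 4064 with the block, 415 with unfiltered limma, and 282 to 1906 leaving out each library. At day 5 (2117) they became 3234, 4418 and 872, with 1315 when only the groups compared were fitted and 723 to 1874 leaving out each library. Between the days (4) they became 599 without a filter, 306 with DESeq2, 1117 with the block, 1, 0 and 0 with limma, and 1 to 15 leaving out each library. The cause of these shifts was not tested.

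The labels do not say what a replicate number shares, and a group has only 2, so the main model has no block. As a hint of pairing from the data, deviations of equal numbers correlated at 0.522 (control and day 3), 0.446 (control and day 5) and 0.634 (day 3 and day 5) over 10190 genes. With the block, edgeR called HSP90AB1 (adjusted p = 0.0183) and HSPB1 (0.0062) at day 3. At day 5 it called HSPA8 (0.00678), HSP90AA1 (0.0112) and HSPB1 (0.00981), and between the days HSPA8 (0.00794) and HSP90AB1 (0.0156). Of all 14601 genes, the same fit called 4064 at day 3, 4418 at day 5 and 1117 between the days.

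The reversals were all of changes far from the threshold. Between the days, DNAJA1 stood at -0.003 with relative log expression factors, -0.010 with upper-quartile factors, -0.038 without a filter and -0.006 with DESeq2, HSPB1 at -0.015 without a filter, and DNAJB1 at 0.040, 0.041 and 0.040 with limma. HSF1 at day 5 stood at 0.005 with limma. Leaving out each library gave ranges of -0.068 to 0.034 for DNAJA1, -0.085 to 0.1 for HSPB1, -0.137 to 0.030 for DNAJB1, -0.142 to 0.362 for HSPA1B and -0.042 to 0.435 for HSP90AA1 between the days. Against control, it gave -0.003 to 0.392 for DNAJB1 and -0.203 to 0.035 for JUN at day 3, and -0.048 to 0.319 for DNAJB1, -0.006 to 0.498 for HSPA1B and -0.158 to 0.286 for HSF4 at day 5. Where a group keeps 1 library, its spread is taken from the other groups. HSPA1A had 0 to 6 counts a library, and whether depth or the counting of reads shared with HSPA1B limits it was not tested.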
